A study of Homo sapiens with 18 samples.

Results

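This account covers the zinc finger genes of human chromosome 19 in KBM7, a near-haploid chronic myelogenous leukaemia cell line. A gene was included if its Ensembl identifier in the count tables is a protein-coding gene on chromosome 19 in GENCODE release 29 with a symbol made of ZNF and a number, and 249 of the 58051 identifiers met this rule. Poly-A RNA was sequenced in 18 libraries in 6 groups of 3: THZ531 at 600 nM, the compounds dCeMM-1 to dCeMM-4 each at 10 times its EC50, and the solvent DMSO, all for 5 h. All groups are the same unmodified cell line, and synthetic ERCC and SIRV RNAs were added as a spike-in. THZ531 blocks the kinases CDK12 and CDK13 covalently. The other compounds cause protein degradation: of the splicing factor RBM39 in the case of dCeMM-1, and of cyclin K, which CDK12 and CDK13 need, in the case of the remaining 3. Whether replicate libraries stem from separate cultures is not said in the labels, so p-values measure the spread between these libraries, which may be technical.

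Most of these genes encode KRAB zinc finger proteins. Such a protein reads DNA through an array of C2H2 zinc fingers and, through its KRAB domain, calls in the corepressor TRIM28, the histone methyltransferase SETDB1 and HP1 proteins, which silence transposable elements and some genes. The family grew by tandem duplication, which left chromosome 19 with runs of related neighbours, and many of its mRNAs are known as scarce and short-lived. A finger motif (a pair of cysteines 2 to 4 residues apart, 12 residues, then a pair of histidines 3 to 5 residues apart) was found in the translated GENCODE transcript of 246 of the 249 genes, with a median of 12 fingers per gene. A KRAB A box pattern was found in 212 genes. The most fingers, 39, were in ZNF729, which did not pass the filter on low counts, and ZNF91, a repressor of SVA retrotransposons, had 32.

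Promoter sequences of 217 members were found in the RefSeq table for GRCh38.p14, as 250 bases before to 50 bases after each annotated start. The letters CCAAT, bound by the factor NF-Y, were present on either strand in 54.4% of the member windows, 42.9% of those of ZNF-numbered genes elsewhere and 36.4% of all 14859 protein-coding genes in the table. CCGGAAG, a site of ETS factors, was present in 44.7% of the member windows, 33.96% of those of ZNF-numbered genes elsewhere and 14.4% of all windows. The motif of CTACA and TCCC with 2 bases of any kind between them, which is part of a site bound by ZNF143, was present in 14.3% of the member windows, 8.96% of those of ZNF-numbered genes elsewhere and 3.08% of all windows. Among genes that passed the filter on low counts, in the same order, CCAAT was in 51.9%, 44.6% and 36.8% of windows. CCGGAAG was in 43.0%, 37.3% and 19.5% of them, and the CTACA and TCCC motif in 17.7%, 10.2% and 4.33%. The listed start lay within 100 bases of the GENCODE start for 160 of the 217 members. These shares were not tested. In the member windows no match to any of these motifs overlapped a match to another, and the motifs were chosen after promoter sequences had been read. The 250 bases before the start are shown for 4 genes whose listed start lies within 100 bases of the GENCODE start. These genes stand for different responses. ZNF57 and ZNF45 were among the steepest falls, while relative to other genes ZNF121 rose and ZNF91 had small changes. The sequences are written 5′ to 3′ on the gene's strand, with matches to these 3 motifs on either strand in capitals.
ZNF57: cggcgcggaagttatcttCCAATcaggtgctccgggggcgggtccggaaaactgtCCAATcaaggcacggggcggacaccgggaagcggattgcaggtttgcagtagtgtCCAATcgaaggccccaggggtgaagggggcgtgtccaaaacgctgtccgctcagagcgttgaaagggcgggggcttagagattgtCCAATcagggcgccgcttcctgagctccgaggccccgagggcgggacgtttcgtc
ZNF45: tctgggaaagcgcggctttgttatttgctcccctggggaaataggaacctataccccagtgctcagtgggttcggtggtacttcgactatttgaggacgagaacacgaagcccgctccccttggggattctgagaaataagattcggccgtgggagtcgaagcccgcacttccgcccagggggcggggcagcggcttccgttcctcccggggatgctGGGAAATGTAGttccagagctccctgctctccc
ZNF121: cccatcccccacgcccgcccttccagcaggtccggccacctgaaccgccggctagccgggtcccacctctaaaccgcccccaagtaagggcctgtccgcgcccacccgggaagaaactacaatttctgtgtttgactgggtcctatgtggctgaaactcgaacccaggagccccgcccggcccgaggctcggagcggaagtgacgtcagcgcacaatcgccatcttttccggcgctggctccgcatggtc
ZNF91: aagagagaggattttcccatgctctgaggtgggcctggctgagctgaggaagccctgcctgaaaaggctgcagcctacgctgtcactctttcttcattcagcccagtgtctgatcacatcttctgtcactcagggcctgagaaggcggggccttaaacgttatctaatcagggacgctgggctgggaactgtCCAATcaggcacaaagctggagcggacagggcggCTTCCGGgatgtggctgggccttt
The windows are chr19:2900678-2900927 (+) for ZNF57, chr19:43935283-43935532 (-) for ZNF45, chr19:9584505-9584754 (-) for ZNF121 and chr19:23395472-23395721 (-) for ZNF91. ZNF57 held 4 CCAAT matches, ZNF45 held 1 match to the CTACA and TCCC motif, ZNF91 held 1 CCAAT and 1 CCGGAAG match, and ZNF121 held none of these motifs. A match describes the letters and says nothing of binding.

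Of the 249 genes, 175 passed the filter on low counts and were tested, and 74 did not. The untested genes stayed at or under 0.491 CPM (counts scaled to library size) as a DMSO mean, and 6 of them had no count in any library. One of them was ZNF93, known to repress a family of L1 retrotransposons, at 0.0386 CPM in DMSO. Of the tested genes 168 were over the filter level of 0.692 CPM in all 3 DMSO libraries and 7 were not. The tested genes had a median DMSO level of 11.2 CPM, against 18.2 CPM for all 15055 genes tested, and ranged between 0.340 and 213.8 CPM. Libraries held 4598576 to 17943571 gene counts, with DMSO replicate 3 the shallowest. The 7 myeloid markers summed to between 785 and 1690 CPM, 3 T cell markers to between 56.9 and 171 CPM, nearly all of it CD3D, 3 B cell markers to between 2.11 and 9.96 CPM, 3 fibroblast markers to between 1.06 and 5.20 CPM, 3 epithelial markers to between 0.418 and 1.78 CPM and 2 endothelial markers to between 0 and 0.263 CPM. Of these markers KRT5 and DCN were at 0 in every library.

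With THZ531, dCeMM-3 and dCeMM-2 most zinc finger genes of chromosome 19 fell. Levels here are CPM scaled by TMM, a method that centres the bulk of genes, so that changes are relative to other genes, and a gene was called at an adjusted p under 0.05. With THZ531, 148 of the 175 genes fell and 14 rose, where 43.7% of all genes fell and 35.8% rose, and their median log2 fold change was -1.75 beside -0.10 for all genes. With dCeMM-3, 144 fell and 13 rose (45.1% and 35.9% of all genes), with a median of -1.69 beside -0.15. With dCeMM-2, 141 fell and 15 rose (41.2% and 37.1% of all genes), with a median of -1.36 beside -0.02. With dCeMM-4, 106 fell and 29 rose (35.3% and 32.9% of all genes), with a median of -0.64 beside 0.01. dCeMM-1 went the other way: 3 fell and 70 rose (14.8% and 16.5% of all genes), with a median of 0.28 beside 0.03. Members that were over the filter level in all 3 DMSO libraries had medians of -1.78 with THZ531, -1.74 with dCeMM-3, -1.38 with dCeMM-2, -0.61 with dCeMM-4 and 0.27 with dCeMM-1. In these bulk samples fewer cells and less RNA per cell cannot be told apart.

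**Figure D1:**
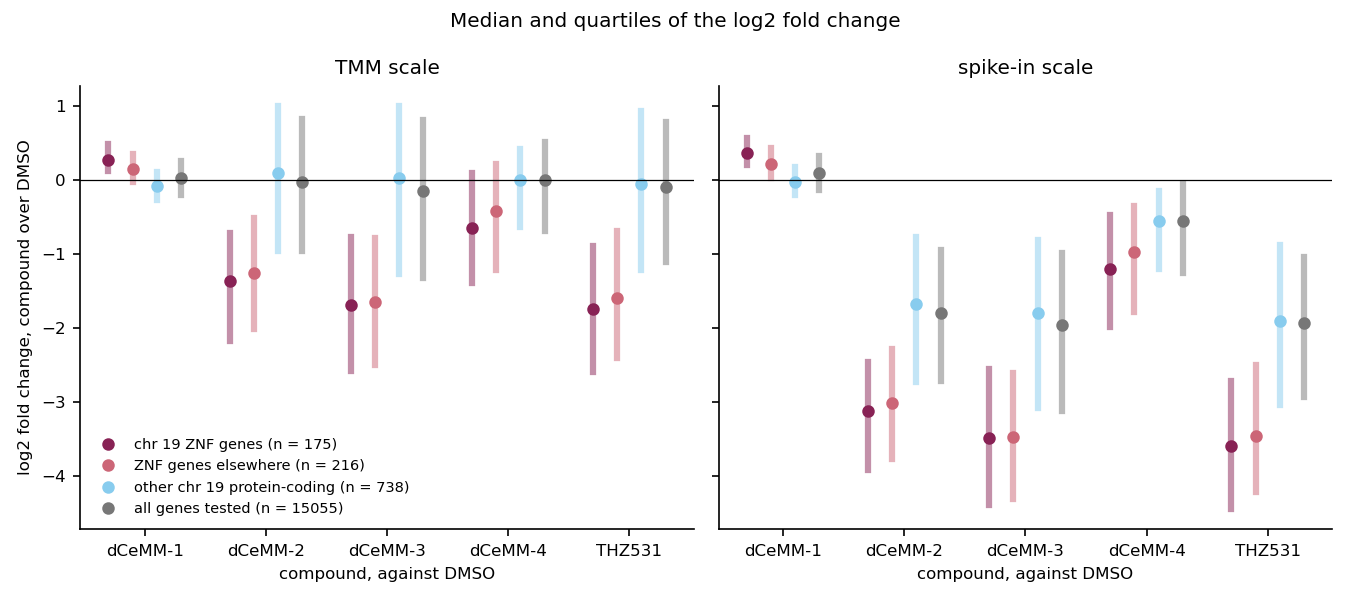
Median (point) and quartiles (bar) of the log2 fold change of each compound over DMSO for 175 tested zinc finger genes of chromosome 19, 216 ZNF-numbered genes on other chromosomes, 738 other protein-coding genes of chromosome 19 and all 15055 genes tested, on the TMM scale and on the spike-in scale. The medians of both zinc finger sets lie below those of the other sets with THZ531, dCeMM-2, dCeMM-3 and dCeMM-4, and above them with dCeMM-1.

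Zinc finger genes elsewhere in the genome had values in the same range, and the neighbours of these genes on chromosome 19 did not. The 216 tested ZNF-numbered genes on other chromosomes had medians of -1.59 with THZ531, -1.65 with dCeMM-3, -1.25 with dCeMM-2, -0.41 with dCeMM-4 and 0.15 with dCeMM-1. Medians over the 738 other protein-coding genes tested on chromosome 19 were -0.05 with THZ531, 0.03 with dCeMM-3, 0.10 with dCeMM-2, 0.01 with dCeMM-4 and -0.08 with dCeMM-1. These lists are described here and the difference between them was not tested. In single libraries the median change of the chromosome 19 zinc finger genes from the DMSO mean, taken on log2(CPM + 0.5), was -1.59, -1.48 and -1.58 with THZ531, -1.42, -1.55 and -1.32 with dCeMM-3, -1.08, -1.21 and -1.29 with dCeMM-2, -0.53, -0.58 and -0.56 with dCeMM-4 and 0.27, 0.25 and 0.33 with dCeMM-1, against 0.05, -0.03 and -0.03 in DMSO. No treated library overlapped the DMSO libraries in this median. The 249 genes together took 0.0942% ± 0.00452 with THZ531, 0.0943% ± 0.0137 with dCeMM-3, 0.120% ± 0.00761 with dCeMM-2, 0.210% ± 0.00642 with dCeMM-4 and 0.346% ± 0.00882 with dCeMM-1 of all gene counts, against 0.288% ± 0.00666 in DMSO (SD, n = 3 each). An exact two-sided permutation test of this share gave p = 0.1 for each compound, the smallest that 3 libraries against 3 allow.

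Scaling by the spike-in, which keeps a change shared by most genes, gave all genes medians of -1.94 with THZ531, -1.96 with dCeMM-3, -1.80 with dCeMM-2, -0.56 with dCeMM-4 and 0.10 with dCeMM-1. On that scale 173 of the 175 genes fell with THZ531, 172 with dCeMM-3 and 169 with dCeMM-2, and 0 rose with any of these. Of all genes 84.7%, 83.7% and 83.0% fell and 1.32%, 1.12% and 1.48% rose with these compounds. With dCeMM-4, 128 fell and 5 rose (48.0% and 6.30% of all genes), and with dCeMM-1, 1 fell and 16 rose (1.34% and 2.83% of all genes). The medians of the zinc finger genes were -3.60 with THZ531, -3.48 with dCeMM-3, -3.12 with dCeMM-2, -1.21 with dCeMM-4 and 0.37 with dCeMM-1. Relative to the median of all genes on the same scale they were -1.66 with THZ531, -1.53 with dCeMM-3, -1.32 with dCeMM-2, -0.65 with dCeMM-4 and 0.27 with dCeMM-1. Spike-in RNAs took 0.531% with THZ531, 0.542% with dCeMM-3, 0.512% with dCeMM-2, 0.234% with dCeMM-4 and 0.176% with dCeMM-1 of counts, against 0.179% in DMSO, and the labels do not state how much was added per cell.

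Reads that did not align uniquely, which the counts leave out, numbered 69.3 with THZ531, 78.6 with dCeMM-3, 65.6 with dCeMM-2, 48.46 with dCeMM-4 and 45.7 with dCeMM-1 per 100 gene counts, against 43.49 in DMSO, and their part in the results was not tested. Among the tested genes, 15 shared over 20% of their 50-base words with other genes, ZNF443, ZNF799 and ZNF587B among them, and their values are uncertain for that reason. Exons of 59 tested genes overlapped another gene on the same strand and those of 57 on the opposite strand, and the strand setting of the counting is not given in the sources used here. The 75 tested genes without any exon overlap had medians of -2.02 with THZ531, -1.75 with dCeMM-3, -1.38 with dCeMM-2, -0.65 with dCeMM-4 and 0.32 with dCeMM-1.

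Per length, ZNF146 (chr19:36214602-36238774, + strand, GRCh38) was the most abundant member, a small protein made almost wholly of fingers, with 10 finger motifs and no KRAB match. In DMSO it stood at 51.6 CPM per kb of exon, ahead of ZNF317 at 15.7, ZNF581 at 14.6, ZNF574 at 11.1, ZNF175 at 9.71 and ZNF428 at 8.60 CPM per kb. ZNF146 had 29.2, 24.8 and 27.7 CPM with THZ531, 24.9, 21.8 and 28.4 CPM with dCeMM-3, 31.6, 30.01 and 32.4 CPM with dCeMM-2, 119, 109 and 114 CPM with dCeMM-4 and 192, 192 and 204 CPM with dCeMM-1, against 231, 197 and 213 CPM in DMSO. All libraries of THZ531, dCeMM-3, dCeMM-2 and dCeMM-4 lay below DMSO, and the dCeMM-1 libraries overlapped it. For log2 fold changes, values after ± are the SE implied by the test and not a separate estimate. The log2 fold change of ZNF146 with this SE was -2.97 ± 0.08 with THZ531, -3.09 ± 0.08 with dCeMM-3, -2.77 ± 0.08 with dCeMM-2 and -0.91 ± 0.07 with dCeMM-4, with adjusted p-values of 9.1e-14 or less. ZNF175, a KRAB gene, had log2 fold changes of -3.77 ± 0.12 with THZ531, -2.80 ± 0.11 with dCeMM-3, -3.18 ± 0.12 with dCeMM-2 and -1.43 ± 0.10 with dCeMM-4 (adjusted p = 3.1e-16 or less). ZNF581 was at -0.83 ± 0.11 with THZ531, -0.83 ± 0.11 with dCeMM-3, 0.11 ± 0.10 with dCeMM-2 and 0.14 ± 0.10 with dCeMM-4, and it shares exons with ZNF580 and CCDC106.

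The deepest fall with THZ531 and with dCeMM-3 was that of ZNF57 (chr19:2900898-2918476, + strand), a KRAB gene with 13 fingers near the end of the short arm. It had 0.410, 0.0877 and 0.158 CPM with THZ531, 0.132, 0.415 and 0.0795 CPM with dCeMM-3, 0.965, 1.05 and 1.40 CPM with dCeMM-2, 8.83, 9.85 and 7.38 CPM with dCeMM-4 and 8.002, 7.59 and 7.83 CPM with dCeMM-1, against 8.16, 9.39 and 8.43 CPM in DMSO. Libraries of THZ531, dCeMM-3 and dCeMM-2 were all low, and those of dCeMM-4 overlapped DMSO. Over 3 libraries these are 8 counts with THZ531, 7 with dCeMM-3 and 37 with dCeMM-2, against 365 in DMSO. The log2 fold change was -5.25 ± 0.30 with THZ531 (adjusted p = 1.3e-18), -5.48 ± 0.31 with dCeMM-3 (adjusted p = 5.2e-19) and -2.97 ± 0.22 with dCeMM-2 (adjusted p = 4.9e-15). At such low counts the SEs with THZ531 and dCeMM-3 are approximate and may be too small. The log2 fold change was -6.05 without THZ531 replicate 1 and -6.24 without dCeMM-3 replicate 2. Under dCeMM-4 it was -0.0046 (adjusted p = 0.98) and under dCeMM-1 -0.16 (adjusted p = 0.43).

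ZNF45 (chr19:43912629-43935278, - strand), a KRAB gene with 15 fingers, shared no 50-base word with another gene and overlapped no other exon. It had 1.89, 1.14 and 1.58 CPM with THZ531, 2.89, 2.18 and 2.07 CPM with dCeMM-3, 2.08, 2.43 and 1.28 CPM with dCeMM-2, 8.14, 8.46 and 8.78 CPM with dCeMM-4 and 28.1, 28.3 and 30.2 CPM with dCeMM-1, against 27.01, 22.9 and 24.7 CPM in DMSO. The libraries of THZ531, dCeMM-3, dCeMM-2 and dCeMM-4 all stood below DMSO, those of dCeMM-4 between the other 3 compounds and DMSO. Its log2 fold changes were -4.003 ± 0.16 with THZ531, -3.36 ± 0.15 with dCeMM-3, -3.62 ± 0.16 with dCeMM-2 and -1.56 ± 0.11 with dCeMM-4 (adjusted p = 6e-15 or less). ZNF114 (chr19:48270102-48287608, + strand), a KRAB gene with 3 finger motifs, had 0.821, 0.175 and 1.02 CPM with THZ531, 0.658, 0.829 and 0.953 CPM with dCeMM-3, 0.594, 0.728 and 0.383 CPM with dCeMM-2 and 4.04, 3.59 and 2.74 CPM with dCeMM-4, against 16.8, 14.6 and 14.8 CPM in DMSO. These compounds stood below DMSO as for ZNF45, with dCeMM-4 again between the other 3 and DMSO. The log2 fold changes of ZNF114 were -4.47 ± 0.23 with THZ531, -4.25 ± 0.22 with dCeMM-3, -4.68 ± 0.24 with dCeMM-2 and -2.16 ± 0.16 with dCeMM-4 (adjusted p = 3.5e-15 or less).

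The other members with the largest falls came from different clusters, which are numbered C1 to C9 along the chromosome as described below. This ranking covers called members with 5 CPM or more in the higher group and no overlap of libraries. ZNF583, a KRAB gene of C9, had 0.328, 0.526 and 0.236 CPM with THZ531, against 9.95, 9.45 and 5.17 CPM in DMSO, a log2 fold change of -4.58 ± 0.29 (adjusted p = 1.9e-17). ZNF225 of C7 was at -4.46 ± 0.32 with THZ531 and -3.71 ± 0.29 with dCeMM-2, and its value of -3.42 with dCeMM-3 was -4.36 without dCeMM-3 replicate 1. ZNF627 of C3 was at -4.31 ± 0.19 with THZ531 and -3.59 ± 0.18 with dCeMM-2. ZNF443 of C3, with 37.7% of its 50-base words shared, was at -4.17 ± 0.30 with THZ531, and at -4.87 without THZ531 replicate 3. ZNF440 of C3 was at -3.44 ± 0.19 with dCeMM-2. With dCeMM-3 the list went on with ZNF823 of C3 at -4.22 ± 0.22, ZNF473, a partner of the U7 machinery that trims histone mRNA ends, at -4.13 ± 0.14, ZNF845 of C8 at -4.10 ± 0.18 and ZNF584 of C9 at -4.02 ± 0.20. All of these had adjusted p-values of 2.1e-14 or less by edgeR's quasi-likelihood test. ZNF583, ZNF225 and ZNF443 had 2 to 9 counts in each THZ531 library, so their SEs there are approximate and may be too small.

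**Figure D2:**
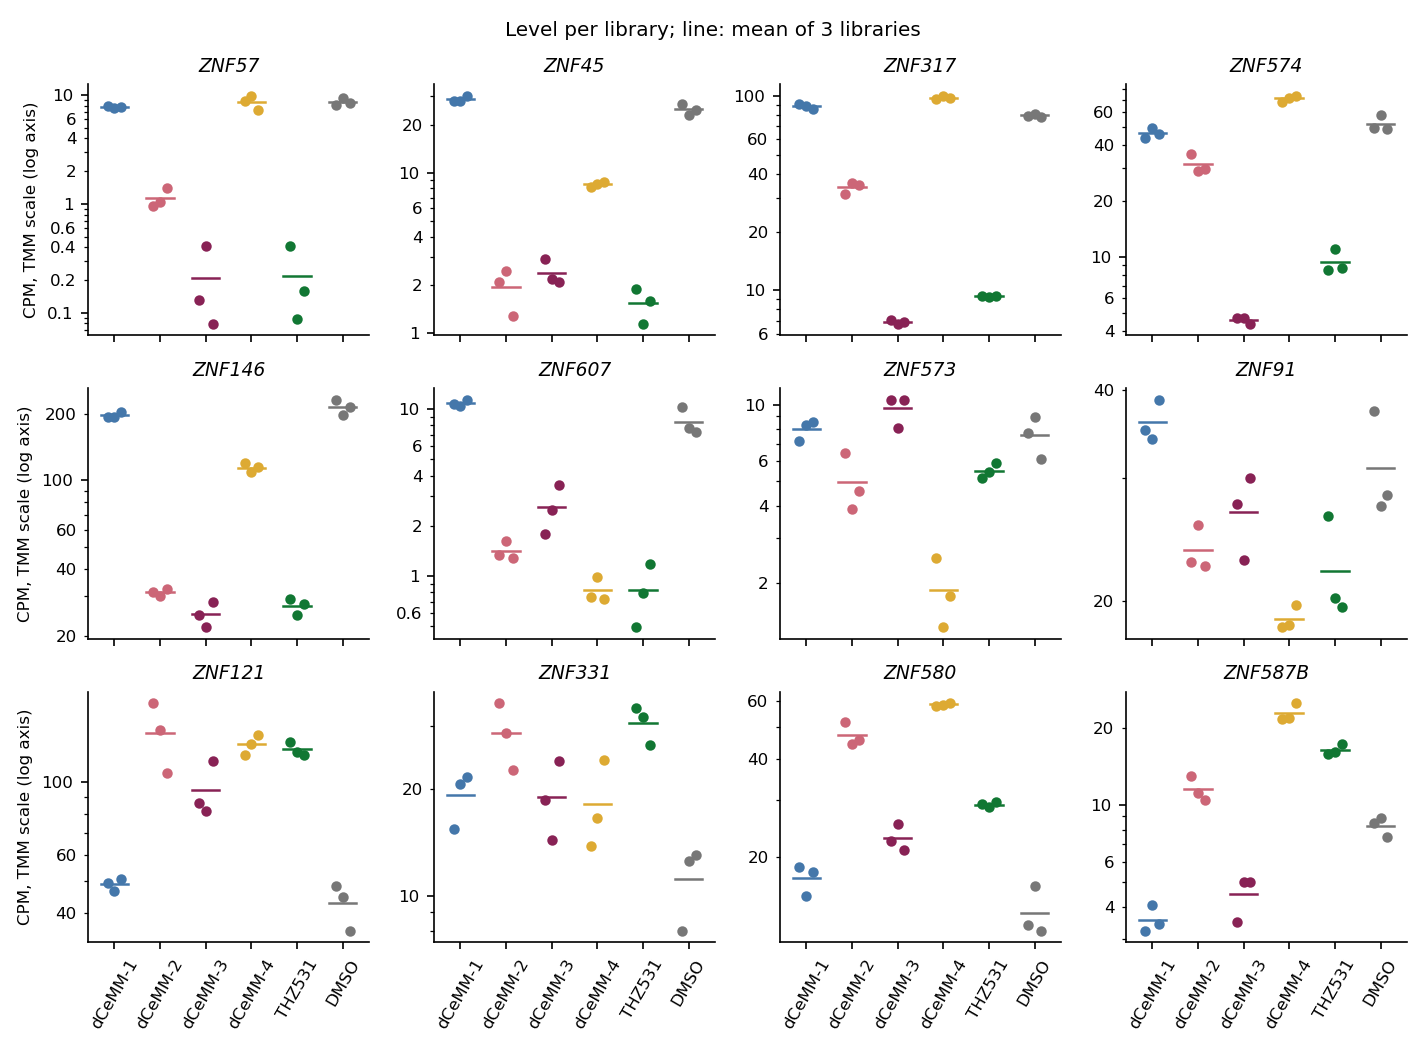
TMM-scaled CPM (log axes, each panel with its own range) of 12 zinc finger genes in each of the 18 libraries, with a point per library and a line at the mean of 3. ZNF57, ZNF45 and ZNF146 lie below DMSO in every THZ531, dCeMM-2 and dCeMM-3 library, ZNF121 lies above DMSO with those compounds and dCeMM-4, and ZNF587B lies below DMSO with dCeMM-1.

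A few members ran against the family on the TMM scale. ZNF121 (chr19:9560353-9584533, - strand, 9 fingers, no KRAB match) had 133, 124 and 121 CPM with THZ531, 86.8, 81.7 and 116 CPM with dCeMM-3, 174, 145 and 106 CPM with dCeMM-2 and 121, 131 and 139.9 CPM with dCeMM-4, against 48.4, 44.9 and 35.3 CPM in DMSO. Every one of these treated libraries was above all 3 DMSO libraries, which was a condition for being named among the largest rises. The log2 fold changes were 1.52 ± 0.17 with THZ531, 1.11 ± 0.17 with dCeMM-3, 1.70 ± 0.17 with dCeMM-2 and 1.57 ± 0.17 with dCeMM-4 (adjusted p = 2.2e-05 or less), while on the spike-in scale they were -0.28 with THZ531, -0.65 with dCeMM-3, -0.04 with dCeMM-2 and 1.06 with dCeMM-4. There the value with dCeMM-3 passed the test as a fall (adjusted p = 0.0032) and that with dCeMM-4 as a rise (adjusted p = 3.4e-06).

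ZNF331, an imprinted KRAB gene of C8, had 33.8, 31.8 and 26.6 CPM with THZ531, 34.8, 28.7 and 22.6 CPM with dCeMM-2 and 15.4, 20.6 and 21.6 CPM with dCeMM-1, against 7.98, 12.53 and 13.03 CPM in DMSO. These libraries all lay above DMSO, which was a condition for being named among the largest rises. Its log2 fold change on the TMM scale was 1.51 ± 0.27 with THZ531, 0.83 ± 0.28 with dCeMM-3, 1.43 ± 0.27 with dCeMM-2, 0.75 ± 0.28 with dCeMM-4 and 0.84 ± 0.27 with dCeMM-1, and on the spike-in scale -0.38 with THZ531, -1.02 with dCeMM-3, -0.41 with dCeMM-2, 0.16 with dCeMM-4 and 0.86 with dCeMM-1. Its calls with dCeMM-3, dCeMM-4 and dCeMM-1 were lost without DMSO replicate 1, its lowest DMSO library, where the values were 0.58 with dCeMM-3, 0.52 with dCeMM-4 and 0.61 with dCeMM-1. They were also lost without dCeMM-3 replicate 3 (0.62), without dCeMM-4 replicate 3 (0.49), and without dCeMM-1 replicate 2 (0.78) or replicate 3 (0.75).

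ZNF580, ZNF738, ZNF726, ZNF358, ZNF428, ZNF506 and ZNF587B had the other largest rises on the TMM scale under THZ531, dCeMM-3 or dCeMM-2. As above, only called members with 5 CPM or more in the higher group and no overlap of libraries were ranked. All values of these genes under these 3 compounds named here were negative on the spike-in scale. ZNF580, which shares exons with CCDC106 and ZNF581, had 28.98, 28.4 and 29.4 CPM with THZ531, 51.9, 44.4 and 45.6 CPM with dCeMM-2 and 58.1, 58.6 and 59.2 CPM with dCeMM-4, against 12.4, 16.3 and 11.9 CPM in DMSO. Its treated libraries lay above DMSO, with log2 fold changes of 1.05 ± 0.11 with THZ531, 1.77 ± 0.11 with dCeMM-2 and 2.07 ± 0.10 with dCeMM-4 (adjusted p = 3.1e-11 or less), and of -0.77 with THZ531, -0.0016 with dCeMM-2 and 1.53 with dCeMM-4 on the spike-in scale. ZNF738 of C4, which has a KRAB match and no finger motif in its annotated transcript, was at 1.32 ± 0.14 with THZ531, 1.14 ± 0.14 with dCeMM-3, 1.27 ± 0.14 with dCeMM-2 and 1.19 ± 0.14 with dCeMM-4. ZNF726 of C4 was at 1.18 ± 0.19 with THZ531 and 1.31 ± 0.18 with dCeMM-3. ZNF358 was at 0.99 ± 0.11 and ZNF428 at 0.99 ± 0.11 with dCeMM-2, ZNF358 at 0.92 ± 0.11 and ZNF506 of C4 at 0.83 ± 0.12 with dCeMM-3, and ZNF587B of C9 at 0.95 ± 0.13 with THZ531. The spike-in values were -0.51 for ZNF738, -0.61 for ZNF726 and -0.88 for ZNF587B with THZ531.

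ZNF274, known to bring SETDB1 to the 3′ ends of zinc finger genes themselves, had 3.53, 3.07 and 2.44 CPM with THZ531, 3.75, 4.04 and 4.37 CPM with dCeMM-3, 2.90, 3.56 and 3.06 CPM with dCeMM-2, 4.66, 5.16 and 4.57 CPM with dCeMM-4 and 13.6, 14.9 and 14.48 CPM with dCeMM-1, against 14.46, 13.46 and 9.39 CPM in DMSO. Its libraries with THZ531, dCeMM-3, dCeMM-2 and dCeMM-4 lay below DMSO and those with dCeMM-1 overlapped it. It had log2 fold changes of -2.11 ± 0.16 with THZ531, -1.69 ± 0.15 with dCeMM-3, -2.03 ± 0.16 with dCeMM-2 and -1.44 ± 0.14 with dCeMM-4 (adjusted p = 8.2e-12 or less). ZNF91 had 26.4, 20.2 and 19.6 CPM with THZ531, 27.49, 22.9 and 29.95 CPM with dCeMM-3, 22.7, 25.7 and 22.47 CPM with dCeMM-2 and 18.3, 18.48 and 19.8 CPM with dCeMM-4, against 37.4, 27.3 and 28.4 CPM in DMSO. Its dCeMM-3 libraries overlapped DMSO, and the log2 fold change there was -0.22 ± 0.11 (adjusted p = 0.075). It was -0.51 ± 0.12 with THZ531, -0.40 ± 0.12 with dCeMM-2 and -0.73 ± 0.12 with dCeMM-4, and the dCeMM-2 call was lost without DMSO replicate 1, where the value was -0.24 (adjusted p = 0.078). On the spike-in scale the mean log2 fold change of ZNF91 over THZ531, dCeMM-3 and dCeMM-2 was -2.15. ZNF432 of C8 was at -2.42 ± 0.16 with THZ531, -2.67 ± 0.17 with dCeMM-3, -1.30 ± 0.14 with dCeMM-2 and -0.07 ± 0.12 with dCeMM-4 on the TMM scale.

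dCeMM-4 gave the most mixed set of values. Over all tested members its lowest value was -3.92, among the scattered genes. Only called members with 5 CPM or more in the higher group and no overlap of libraries were ranked. Among these the largest falls were in ZNF607, ZNF382 and ZNF566 of C6, ZNF480 of C8, and ZNF583 and ZNF470 of C9, all KRAB genes. ZNF607 had 0.746, 0.985 and 0.732 CPM with dCeMM-4, against 10.3, 7.67 and 7.28 CPM in DMSO, a log2 fold change of -3.38 ± 0.23 (adjusted p = 4.9e-16). ZNF382 had 1.68, 1.04 and 1.22 CPM with dCeMM-4, against 7.98, 6.58 and 9.58 CPM in DMSO, a log2 fold change of -2.55 ± 0.24 (adjusted p = 7.2e-12). The groups did not overlap in either gene, as the ranking required. ZNF480 was at -2.51 ± 0.15, ZNF566 at -2.25 ± 0.17, ZNF583 at -2.25 ± 0.19 and ZNF470 at -2.22 ± 0.14. Within the same limits, ZNF580, ZNF121 and ZNF738 were among the largest rises with dCeMM-4. The others were ZNF587B at 1.43 ± 0.12, ZNF428 at 1.15 ± 0.10 and ZNF529 of C6 at 1.00 ± 0.10. On the spike-in scale ZNF587B was at 0.89, ZNF428 at 0.60, ZNF738 at 0.64 and ZNF529 at 0.46, the last without passing the test (adjusted p = 0.065). With dCeMM-4 the 148 tested genes with a KRAB match had a median of -0.77 and the 27 without 0.06. The same medians were -1.81 and -1.68 with THZ531, -1.68 and -1.81 with dCeMM-3, -1.38 and -0.89 with dCeMM-2, and 0.33 and 0.10 with dCeMM-1.

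With dCeMM-1 the rises were small: over all tested members the highest value was 1.24, and 2 were called 2-fold or more higher. Among called members with 5 CPM or more in the higher group and no overlap of libraries, the largest rises were in KRAB genes. They were ZNF112, ZNF429, ZNF442, ZNF331, ZNF441 and ZNF302, of C7, C4, C3, C8, C3 and C5. ZNF112 had 6.36, 6.499 and 7.40 CPM with dCeMM-1, against 3.35, 3.60 and 4.60 CPM in DMSO, a log2 fold change of 0.88 ± 0.18 (adjusted p = 0.0002). ZNF441 had 18.3, 19.6 and 17.8 CPM with dCeMM-1, against 11.7, 9.92 and 10.3 CPM in DMSO, a log2 fold change of 0.80 ± 0.13 (adjusted p = 1.3e-05). All dCeMM-1 libraries lay above all DMSO libraries in both, as the ranking required. ZNF429 was at 0.86 ± 0.17, ZNF442 at 0.84 ± 0.19 and ZNF302 at 0.77 ± 0.12, and on the spike-in scale all 6 lay between 0.83 and 0.95 with adjusted p-values of 0.04 or less. The 3 members called lower with dCeMM-1 were ZNF587B, ZNF296 and ZNF787. ZNF587B had 3.21, 4.07 and 3.41 CPM with dCeMM-1, against 8.502, 8.87 and 7.47 CPM in DMSO, with no overlap, a log2 fold change of -1.24 ± 0.15 (adjusted p = 3.1e-08) that was -1.16 on the spike-in scale (adjusted p = 0.0013). ZNF296 was at -0.52 ± 0.13 and ZNF787 at -0.38 ± 0.11, neither called on the spike-in scale, and the ZNF787 call was lost without DMSO replicate 2 (-0.33, adjusted p = 0.053).

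The 3 cyclin K degraders were given at the same multiple of EC50 and were set against each other in 3 pairs, each adjusted over all genes tested. Between dCeMM-3 and dCeMM-4, 107 zinc finger genes were lower and 33 higher with dCeMM-3 (41.2% and 41.5% of all genes), and the median difference was -0.99 beside 0.08 for all genes. Between dCeMM-2 and dCeMM-4, 113 were lower and 30 higher with dCeMM-2 (38.9% and 38.4% of all genes), with a median of -0.95 beside 0.06. Between dCeMM-2 and dCeMM-3, 18 were lower and 49 higher with dCeMM-2 (16.5% and 26.6% of all genes), with a median of 0.08 beside 0.02. The 18 became 11 without dCeMM-3 replicate 3. On the spike-in scale the counts were 146 lower and 5 higher for dCeMM-3 against dCeMM-4 (65.3% and 5.35% of all genes), 150 and 0 for dCeMM-2 against dCeMM-4 (66.8% and 2.63%), and 5 and 43 for dCeMM-2 against dCeMM-3 (4.32% and 18.4%).

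In ZNF317 of C2 the 3 compounds gave 3 separate levels. It had 31.3, 35.6 and 34.8 CPM with dCeMM-2, 7.04, 6.74 and 6.91 CPM with dCeMM-3 and 96.3, 100.4 and 97.55 CPM with dCeMM-4, beside 9.36, 9.21 and 9.38 CPM with THZ531 and 79.47, 80.9 and 78.4 CPM in DMSO. None of these groups overlapped another. The log2 difference was -3.83 for dCeMM-3 over dCeMM-4 (95% interval -4.02 to -3.63), -1.54 for dCeMM-2 over dCeMM-4 (-1.69 to -1.38) and 2.29 for dCeMM-2 over dCeMM-3 (2.08 to 2.502), with adjusted p-values of 1.1e-20 or less. ZNF574, one of the scattered genes, had 35.50, 29.04 and 29.6 CPM with dCeMM-2, 4.67, 4.66 and 4.37 CPM with dCeMM-3 and 68.3, 71.6 and 73.3 CPM with dCeMM-4, beside 8.46, 10.96 and 8.75 CPM with THZ531 and 49.1, 57.7 and 48.7 CPM in DMSO. Its differences were -3.96 for dCeMM-3 over dCeMM-4, -1.17 for dCeMM-2 over dCeMM-4 and 2.79 for dCeMM-2 over dCeMM-3, again with no overlap. ZNF14 of C4 had 3.49, 4.04 and 3.45 CPM with dCeMM-2, 0.921, 0.726 and 1.03 CPM with dCeMM-3 and 20.7, 17.1 and 18.9 CPM with dCeMM-4, against 15.3, 12.1 and 13.99 CPM in DMSO, with a difference of -4.37 for dCeMM-3 over dCeMM-4.

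In ZNF317, ZNF574 and ZNF14 dCeMM-4 was above DMSO on the TMM scale, by 0.30 ± 0.07, 0.44 ± 0.09 and 0.46 ± 0.11 (log2, adjusted p = 0.00043 or less), and at -0.26, -0.11 and -0.11 on the spike-in scale with no call. ZNF57 was at -5.47 ± 0.30 for dCeMM-3 over dCeMM-4, which was -6.24 without dCeMM-3 replicate 2, and at -2.97 ± 0.22 for dCeMM-2 over dCeMM-4. ZNF628 of C9 was at -3.91 ± 0.21 for dCeMM-3 over dCeMM-4 and 2.30 ± 0.27 for dCeMM-2 over dCeMM-3. ZNF799, ZNF180 and ZNF443 were at -2.88 ± 0.24, -2.77 ± 0.15 and -2.72 ± 0.28 for dCeMM-2 over dCeMM-4. ZNF296 of C7 had 28.52, 23.1 and 27.8 CPM with dCeMM-2, 4.998, 2.70 and 3.34 CPM with dCeMM-3 and 21.01, 24.3 and 22.7 CPM with dCeMM-4, beside 18.4, 18.51 and 18.4 CPM with THZ531 and 14.2, 13.9 and 10.7 CPM in DMSO. Of these compounds dCeMM-3 alone lay below DMSO, and the difference between dCeMM-2 and dCeMM-3 was 2.79 (95% interval 2.47 to 3.11).

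**Figure D3:**
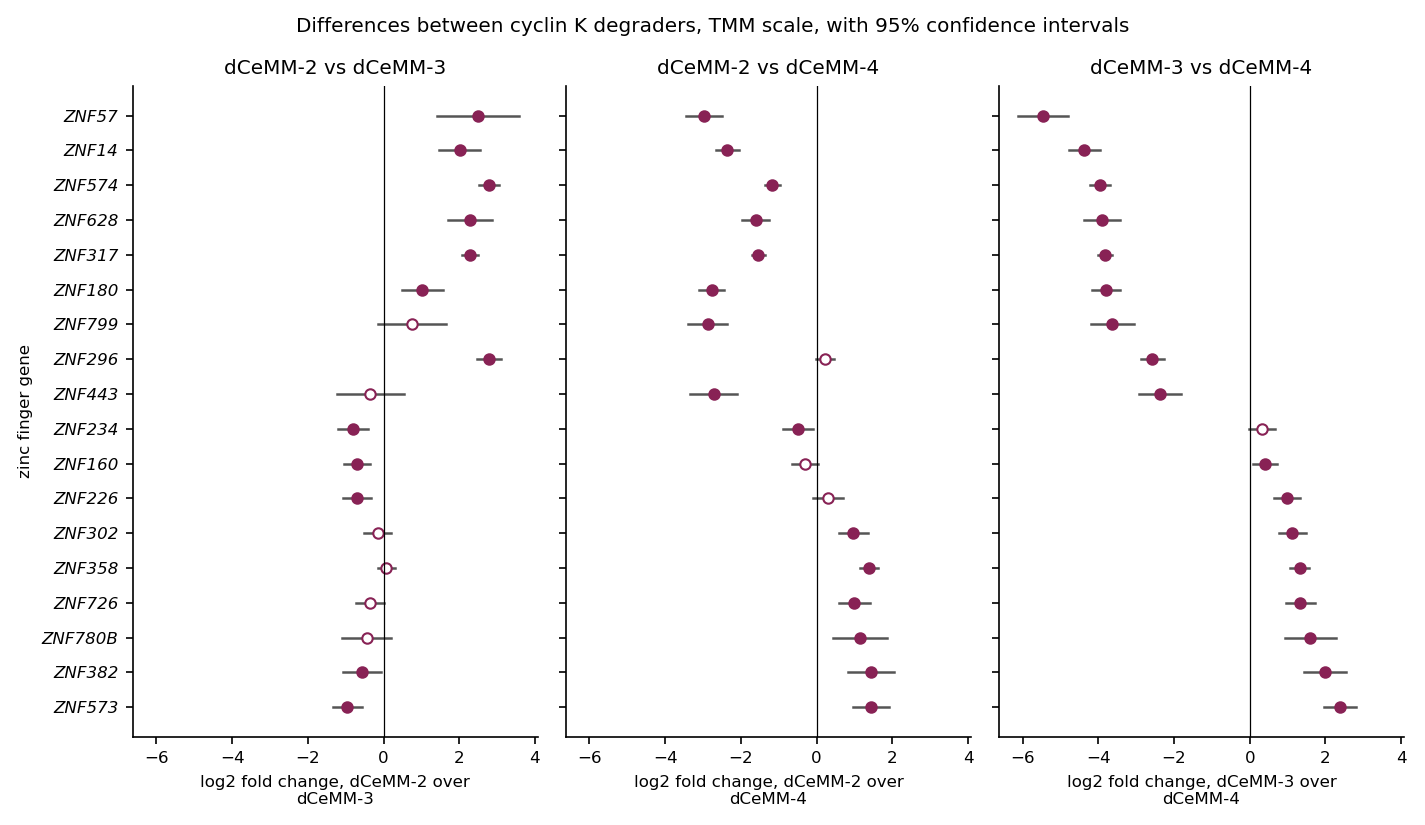
Log2 fold change between pairs of cyclin K degraders (points, filled where the adjusted p is under 0.05) with 95% confidence intervals (lines), for 18 zinc finger genes named for a difference between compounds. ZNF57 has -5.47 for dCeMM-3 over dCeMM-4 and ZNF573 has 2.40. Intervals are built from the SE implied by the test and may be too narrow for genes with few counts, such as ZNF57.

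Fewer members went the other way. ZNF573 of C6 had 6.46, 3.88 and 4.60 CPM with dCeMM-2, 10.46, 8.09 and 10.49 CPM with dCeMM-3 and 2.49, 1.33 and 1.77 CPM with dCeMM-4, beside 5.17, 5.44 and 5.91 CPM with THZ531 and 7.75, 8.92 and 6.13 CPM in DMSO. Its dCeMM-3 libraries overlapped DMSO and its dCeMM-4 libraries were the lowest of all groups. The log2 difference was 2.40 for dCeMM-3 over dCeMM-4 (95% interval 1.97 to 2.82), which was 1.19 on the spike-in scale (adjusted p = 3.3e-05). Its THZ531 call of -0.53 was lost without DMSO replicate 2 (-0.41, adjusted p = 0.065). ZNF382 was at 1.99 ± 0.25 for dCeMM-3 over dCeMM-4, and at 0.80 on the spike-in scale (adjusted p = 0.013). For dCeMM-2 over dCeMM-4, ZNF358, ZNF302, ZNF726 and ZNF780B were at 1.39, 0.97, 0.99 and 1.16 on the TMM scale and at 0.14, -0.22, -0.22 and -0.05 on the spike-in scale, where none passed the test. The next ranking covers called members with 5 CPM or more in the higher group and no overlap of libraries. For dCeMM-2 over dCeMM-3 the largest falls in it were ZNF573 at -0.95 and ZNF234 of C7 at -0.82. Next came ZNF160 of C8 at -0.70 and ZNF226 of C7 at -0.69. For ZNF45 the same difference was -0.27 with a 95% interval of -0.78 to 0.24, for ZNF274 -0.34 (-0.77 to 0.08) and for ZNF91 -0.18 (-0.44 to 0.07), intervals that leave room for either sign.

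Placed by start position, with a break wherever neighbouring members start over 1 Mb apart, the genes formed 9 clusters of 4 or more and 11 scattered genes. C4 (ZNF101 to ZNF254, chr19:19668796-24129961, 37 members of which 18 were tested, ZNF91 among them) had median log2 fold changes of -0.95 with THZ531, -0.74 with dCeMM-3, -0.94 with dCeMM-2, -0.69 with dCeMM-4 and 0.35 with dCeMM-1. C9 at the end of the long arm (ZNF628 to ZNF446, chr19:55476332-58481230, 59 members, 45 tested) had medians of -1.67 with THZ531, -1.55 with dCeMM-3, -1.07 with dCeMM-2, -0.40 with dCeMM-4 and 0.25 with dCeMM-1. C8 (ZNF175 to ZNF331, chr19:51571298-53580269, 40 members, 27 tested) had medians of -2.23 with THZ531, -1.97 with dCeMM-3, -1.66 with dCeMM-2, -0.90 with dCeMM-4 and 0.26 with dCeMM-1. C3 (ZNF653 to ZNF791, chr19:11483427-12640098, 26 members, 17 tested) was at -2.45 with THZ531, -1.96 with dCeMM-3, -2.12 with dCeMM-2, -0.77 with dCeMM-4 and 0.44 with dCeMM-1. C5 (ZNF302 to ZNF792, chr19:34677639-34964049, 5 members, 4 tested) was at -2.78 with THZ531, -1.96 with dCeMM-3, -2.40 with dCeMM-2, -1.67 with dCeMM-4 and 0.36 with dCeMM-1. C1, C2, C6 and C7, with 4, 13, 21 and 17 genes tested, had medians between -2.02 and -1.40 with THZ531. With dCeMM-3 the cluster medians ran between -1.97 in C8 and -0.74 in C4. C5, with 4 genes tested, was the lowest cluster with THZ531, dCeMM-2 and dCeMM-4. C1, also with 4, was the highest with dCeMM-4 (-0.28) and dCeMM-1 (0.48). The highest minus the lowest cluster median was 1.82 with THZ531, 1.23 with dCeMM-3, 1.46 with dCeMM-2, 1.38 with dCeMM-4 and 0.26 with dCeMM-1. These sizes depended on how clusters were formed and which members entered. With a break of 2 Mb the difference was 1.06 with THZ531, 0.83 with dCeMM-2 and 0.72 with dCeMM-4, with a break of 0.5 Mb it was 0.49 with dCeMM-1, and over members with 5 CPM or more in DMSO it was 2.19 with dCeMM-3.

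**Figure D4:**
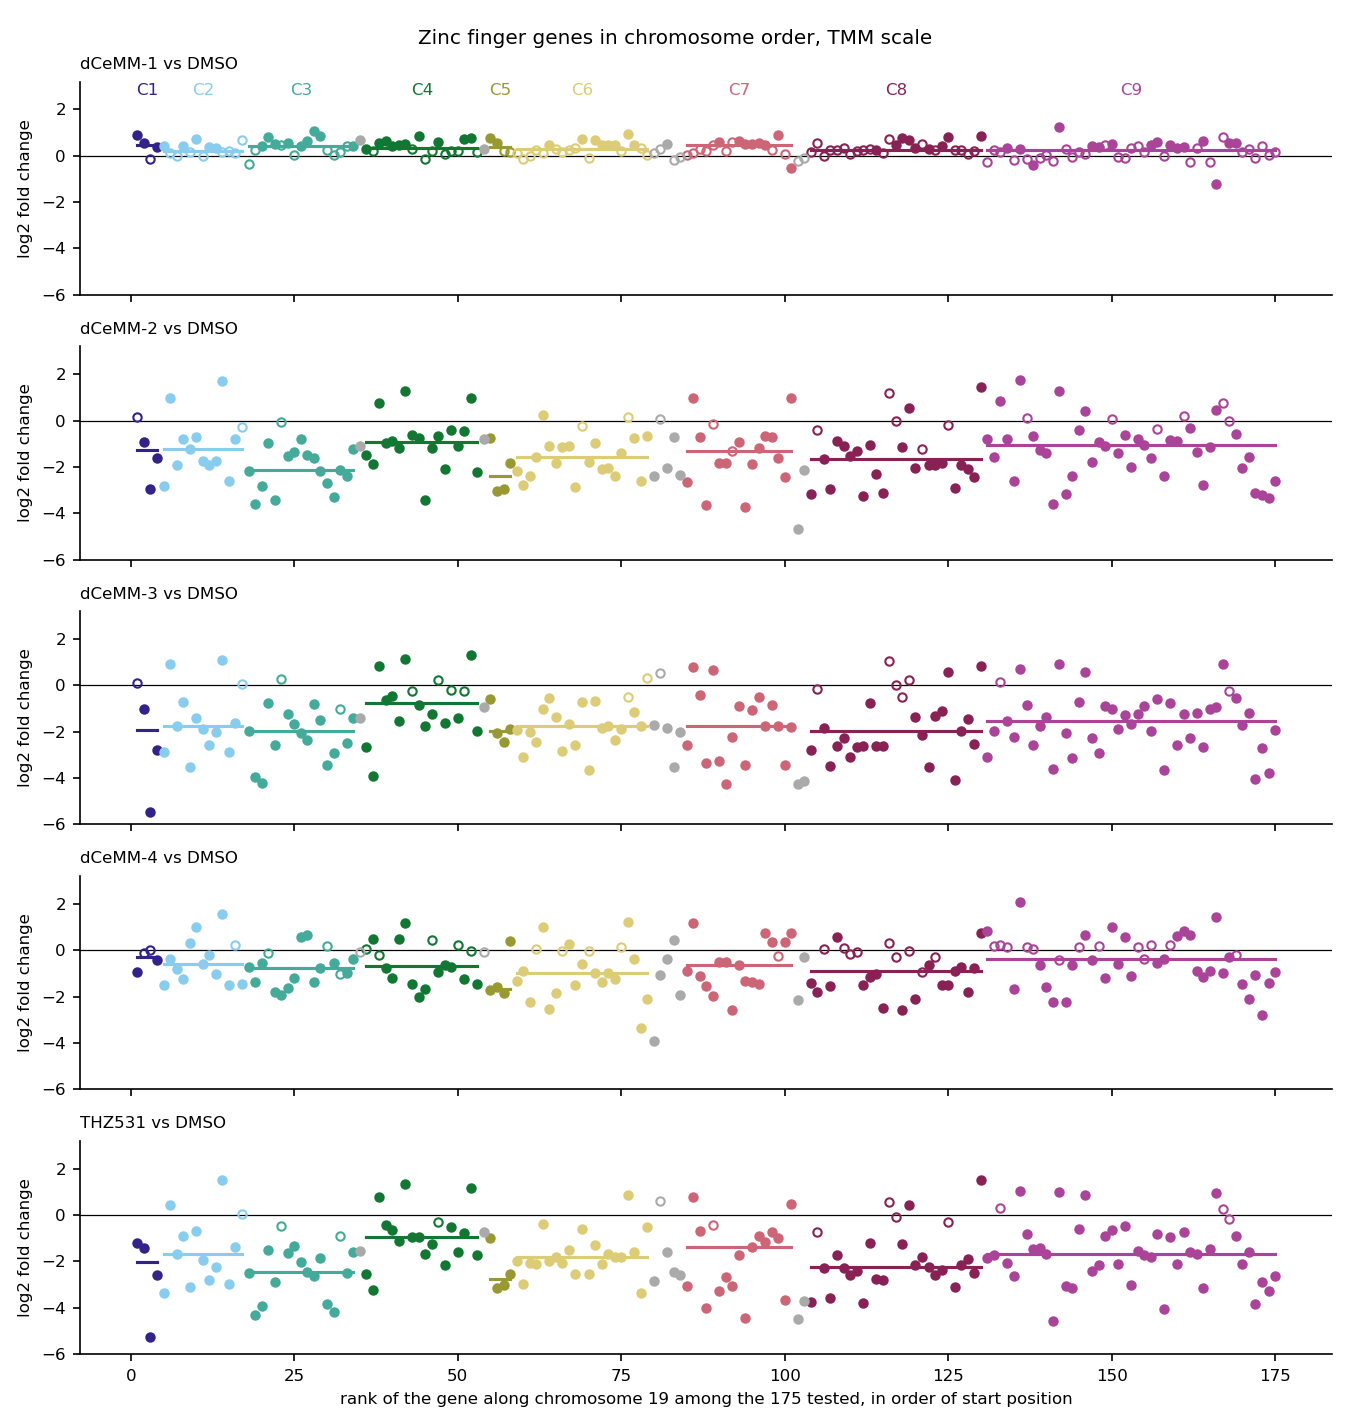
Log2 fold change over DMSO (TMM scale) of the 175 tested zinc finger genes in order of start position along chromosome 19, with a panel per compound. Points are genes, filled where the adjusted p is under 0.05, and lines are cluster medians, which with dCeMM-3 range between -1.97 in C8 and -0.74 in C4.

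The place of C4 was the same in single libraries with THZ531 and dCeMM-3. Its median change from the DMSO mean, on log2(CPM + 0.5), lay between -0.85 and -0.78 with THZ531 and between -0.91 and -0.53 with dCeMM-3, against values between -0.12 and 0.14 in DMSO. The next clusters were C7 with THZ531, between -1.13 and -1.07, and C9 with dCeMM-3, between -1.49 and -1.19, so C4 was above the other clusters in those 6 libraries. With dCeMM-2 the ranges overlapped, with C4 between -0.95 and -0.83 and C9 between -1.10 and -0.81. With dCeMM-4, C5 was the lowest cluster, between -1.42 and -1.33, and C1, between -0.28 and -0.17, and C9, between -0.37 and -0.26, were above the other clusters and overlapped each other. No test was made between clusters, since their genes share libraries and near neighbours share sequence.

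**Figure D5:**
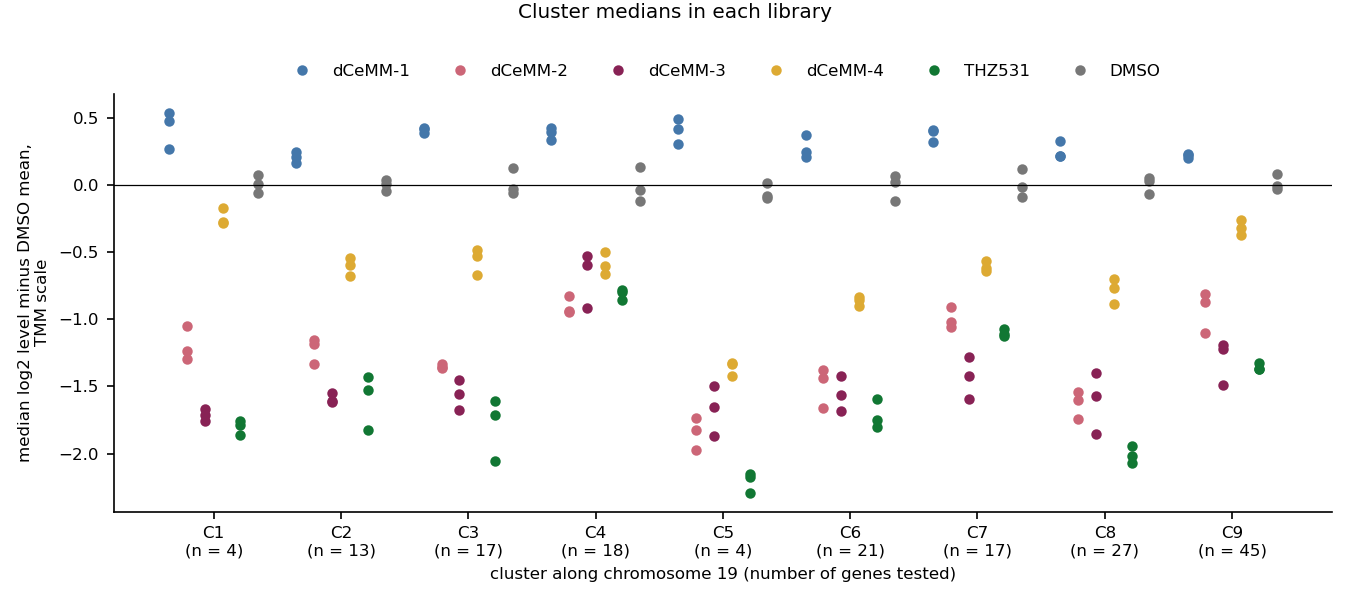
Median change of each cluster's tested zinc finger genes in every library, as log2(CPM + 0.5) on the TMM scale minus the mean of the 3 DMSO libraries, with a point per library. C4 lies between -0.85 and -0.78 with THZ531 and between -0.91 and -0.53 with dCeMM-3, above the other clusters, and dCeMM-1 lies above DMSO in all 9 clusters.

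C4 was also the cluster with the most untested members, 19 of 37, against 14 of 59 in C9. The median span of tested C4 members was 37089.5 bases, and the medians over tested members of other clusters ran between 9992 bases in C5 and 40090.0 bases in C6. Over all members, tested or not, a median of 4.81% of the 50-base words of C4 members was shared with other genes. This was less than the 8.01% of C3 and more than in the other 7 clusters. With dCeMM-3, C4 members ran between -3.91 for ZNF14 and 1.31 for ZNF726.

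The members of a cluster with the lowest and highest mean spike-in-scale log2 fold change over THZ531, dCeMM-2 and dCeMM-3, among those with 5 CPM or more in DMSO, were ZNF57 (-6.35) and ZNF555 (-2.96) in C1, ZNF557 (-4.81) and ZNF121 (-0.32) in C2, and ZNF627 (-5.74) and ZNF441 (-2.89) in C3. In C4 they were ZNF14 (-4.81) and ZNF738 (-0.56), in C5 ZNF30 (-4.59) and ZNF302 (-2.61), and in C6 ZNF146 (-4.75) and ZNF573 (-2.08). In C7 they were ZNF225 (-5.70) and ZNF428 (-0.95), in C8 ZNF845 (-5.19) and ZNF331 (-0.60), and in C9 ZNF583 (-5.67) and ZNF580 (-0.62). Among the scattered genes they were ZNF114 (-6.26) and ZNF780B (-1.41).

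Tested members had medians of 22.9 kb of span, 5.02 kb of exon and 5 exons in the longest coding transcript, against 28.53 kb of span, 5.56 kb of exon and 5 exons for ZNF-numbered genes elsewhere, 15.1 kb of span, 3.84 kb of exon and 8 exons for other protein-coding genes of chromosome 19 and 33.2 kb of span, 5.15 kb of exon and 9 exons for all protein-coding genes. Across the 175 tested members, which share libraries and are not independent, Spearman's rho between span and the log2 fold change was 0.20 with THZ531, 0.15 with dCeMM-3, 0.08 with dCeMM-2, -0.12 with dCeMM-4 and 0.15 with dCeMM-1. With the DMSO level, which enters both measures, it was -0.20 with THZ531, -0.31 with dCeMM-3, -0.12 with dCeMM-2, 0.18 with dCeMM-4 and -0.32 with dCeMM-1. With the number of finger motifs it was -0.0035 with THZ531, 0.01 with dCeMM-3, 0.01 with dCeMM-2, 0.01 with dCeMM-4 and 0.21 with dCeMM-1. Members were also split by the promoter motifs. The 82 tested members with CCAAT had median log2 fold changes of -1.63 with THZ531, -1.51 with dCeMM-3, -1.25 with dCeMM-2, -0.61 with dCeMM-4 and 0.34 with dCeMM-1, and the 76 without it -2.05 with THZ531, -1.85 with dCeMM-3, -1.66 with dCeMM-2, -0.72 with dCeMM-4 and 0.24 with dCeMM-1. With CCGGAAG there were 68 tested members, which had median log2 fold changes of -1.67 with THZ531, -1.40 with dCeMM-3, -1.24 with dCeMM-2, -0.75 with dCeMM-4 and 0.30 with dCeMM-1, and the 90 without it -1.99 with THZ531, -1.83 with dCeMM-3, -1.53 with dCeMM-2, -0.61 with dCeMM-4 and 0.27 with dCeMM-1. With the CTACA and TCCC motif there were 28 tested members, which had median log2 fold changes of -1.85 with THZ531, -1.91 with dCeMM-3, -1.44 with dCeMM-2, -0.96 with dCeMM-4 and 0.26 with dCeMM-1, and the 130 without it -1.78 with THZ531, -1.69 with dCeMM-3, -1.38 with dCeMM-2, -0.61 with dCeMM-4 and 0.29 with dCeMM-1. No test was made between these classes.

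Relative to other genes, the genes for the partners of the KRAB domain moved in both directions, while on the spike-in scale none was called higher. Of 24 corepressor genes, all tested, on the TMM scale 15 fell and 5 rose with THZ531 (43.7% and 35.8% of all genes), 18 fell and 4 rose with dCeMM-3 (45.1% and 35.9% of all genes) and 13 fell and 6 rose with dCeMM-2 (41.2% and 37.1% of all genes). On that scale 9 fell and 11 rose with dCeMM-4 (35.3% and 32.9% of all genes) and 10 fell and 2 rose with dCeMM-1 (14.8% and 16.5% of all genes). On the spike-in scale 24 fell with THZ531, 24 with dCeMM-3, 24 with dCeMM-2, 11 with dCeMM-4 and 1 with dCeMM-1, where 84.7%, 83.7%, 83.0%, 48.0% and 1.34% of all genes fell. TRIM28, the corepressor that KRAB binds, was at 0.38 with THZ531, -0.30 with dCeMM-3, 0.70 with dCeMM-2, 0.92 with dCeMM-4 and -0.21 with dCeMM-1 on the TMM scale, all passing the test, and at -1.47 with THZ531, -2.14 with dCeMM-3, -1.10 with dCeMM-2, 0.36 with dCeMM-4 and -0.15 with dCeMM-1 on the spike-in scale. CBX1, an HP1 protein, was at 0.70 with THZ531, 0.61 with dCeMM-3, 0.83 with dCeMM-2 and 0.67 with dCeMM-4 on the TMM scale, all passing, and at -1.14 with THZ531, -1.20 with dCeMM-3, -0.94 with dCeMM-2 and 0.13 with dCeMM-4 on the spike-in scale. The other HP1 genes, CBX3 and CBX5, went the other way on the TMM scale, all passing. CBX3 was at -0.87 with THZ531, -0.75 with dCeMM-3, -0.98 with dCeMM-2 and -0.18 with dCeMM-4. CBX5 was at -0.19 with THZ531, -0.18 with dCeMM-3, -0.36 with dCeMM-2 and -1.27 with dCeMM-4. SETDB1, the methyltransferase, was at -2.25 with THZ531, -1.80 with dCeMM-3, -1.996 with dCeMM-2 and -1.20 with dCeMM-4, and SMARCAD1, a chromatin remodeller that binds TRIM28, at -2.89 with THZ531, -2.57 with dCeMM-3, -3.29 with dCeMM-2 and -2.30 with dCeMM-4, all on the TMM scale and all passing. FAM208A and MORC2, which act in HUSH silencing, were at -1.45 and -1.44 with THZ531 and -0.57 and -1.12 with dCeMM-3. They were at -1.23 and -0.92 with dCeMM-2 and -3.31 and -3.03 with dCeMM-4. MPHOSPH8 and PPHLN1, which also act in it, fell less with dCeMM-4, at -0.28 and -0.44. Their other values were -1.36 and -0.43 with THZ531, -1.32 and -0.84 with dCeMM-3, and -1.11 and -0.89 with dCeMM-2. All of these passed the test on the TMM scale. Of 13 other zinc finger genes of chromosome 19, with names in ZFP, ZSCAN, ZIM or ZIK or the name PEG3, 6 were tested. On the TMM scale ZFP28, ZSCAN22, ZSCAN5A and ZFP14 fell with all of THZ531, dCeMM-3, dCeMM-2 and dCeMM-4, ZFP30 fell with the first 3 of these, and ZFP14, ZFP28 and ZFP30 rose with dCeMM-1. ZSCAN18, at a DMSO mean of 0.627 CPM, rose with dCeMM-3 (0.94, adjusted p = 0.025) and fell with dCeMM-4 (-1.58), and was at 0.43 with THZ531, 0.57 with dCeMM-2 and 0.52 with dCeMM-1 without a call. On the spike-in scale it was at -1.33 with THZ531, -0.79 with dCeMM-3, -1.13 with dCeMM-2, -2.10 with dCeMM-4 and 0.66 with dCeMM-1, where the values with dCeMM-3 and dCeMM-1 did not pass the test.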

How the data were processed

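Read counts per gene were deposited by the authors as 1 table per library. They are raw counts. The build is GRCh38.p7 and the tools listed are HTSeq 0.11.2, Picard, STAR 2.5.2b and Trimmomatic 0.32, per the submitters' processing notes, which give no roles. The strand setting and any use of molecular identifiers are not given in the sources used here, and reads that did not align uniquely are left out of gene counts. The 5 HTSeq summary rows were kept out of library sizes. Of the gene identifiers 57447 matched GENCODE release 29.

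All 18 libraries were fitted together with edgeR 4.0.16 (R 4.3.3, limma 3.58.1): filterByExpr by group, TMM scaling, a coefficient per group, glmQLFit with robust set and glmQLFTest, with Benjamini-Hochberg adjustment over 15055 genes in each of 8 comparisons. The fit left 12 residual degrees of freedom. The fitting step was also run on simulated counts for DMSO and dCeMM-3 with few genes changed. That setting does not cover a change in most genes, as in these data. The spike-in scale used the summed counts of 92 ERCC sequences and 7 SIRV genes as library sizes. DESeq2 1.42.0 was an alternative. Motifs, promoters and clusters were computed in Python 3.11.15 with pandas 2.3.3 and biopython 1.88.

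Genes named in the text are the 6 largest falls and rises per compound over DMSO and the 4 per pair of compounds among those called with 5 CPM or more in the higher group and no overlap between the libraries of the groups compared, the 6 highest per kb in DMSO, the extremes of each cluster, and a fixed list. Where a gene was named by rank, the lack of overlap in that comparison follows from this choice. The genes and lists were chosen with earlier results of these data known. The SE is the absolute log2 fold change divided by the square root of the test's F. The 95% intervals were built from this SE with 12 degrees of freedom. Both are approximate for genes with few counts. Counts limit the precision of low genes, and intervals cover the spread between libraries.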

Additional observations from a re-analysis of the deposited data

Results flagged for a closer look

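Reads that did not align uniquely are outside the gene counts, and their number per 100 gene counts was above that of the DMSO libraries with 4 compounds. The group means were 69.3 with THZ531, 78.6 with dCeMM-3, 65.6 with dCeMM-2 and 48.5 with dCeMM-4, against 43.5 in DMSO. With dCeMM-1 the mean was 45.7, and its libraries overlapped those of DMSO. Reads of near-identical zinc finger genes can fall into this class, and its part in the results was not tested.

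The share of uniquely aligned reads outside annotated genes was also above DMSO in every library of 4 groups. It was 11.4% with THZ531, 11.7% with dCeMM-2, 11.8% with dCeMM-4 and 8.10% with dCeMM-1, against 7.16% in DMSO. With dCeMM-3 it was 8.91%, and its libraries overlapped those of DMSO. Its part in the results was not tested.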

How the results depend on the processing

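On the spike-in scale the counts of members called lower or higher became 1 and 16 with dCeMM-1, and the counts called higher became 0 with THZ531, 0 with dCeMM-3, 0 with dCeMM-2 and 5 with dCeMM-4. Called lower for dCeMM-2 over dCeMM-3 became 5, and called higher became 0 for dCeMM-2 over dCeMM-4 and 5 for dCeMM-3 over dCeMM-4. The medians became -3.60 with THZ531, -3.48 with dCeMM-3, -3.12 with dCeMM-2, -1.21 with dCeMM-4 and 0.37 with dCeMM-1. Of 160 values of named genes on that scale 120 kept their direction and call, 13 lost the call and 27 changed sign. The last were, with THZ531, ZNF121 (-0.28), ZNF331 (-0.38), ZNF428 (-1.03), ZNF580 (-0.77), ZNF587B (-0.88), ZNF726 (-0.61) and ZNF738 (-0.51). With dCeMM-3 they were ZNF121 (-0.65), ZNF331 (-1.02), ZNF358 (-0.92), ZNF428 (-1.03), ZNF506 (-0.93), ZNF580 (-1.10), ZNF726 (-0.43) and ZNF738 (-0.65). With dCeMM-2 they were ZNF121 (-0.040), ZNF331 (-0.41), ZNF358 (-0.80), ZNF428 (-0.78), ZNF580 (-0.0016) and ZNF738 (-0.50), and with dCeMM-4 ZNF14 (-0.11), ZNF317 (-0.26) and ZNF574 (-0.11). For dCeMM-2 over dCeMM-4 they were ZNF302 (-0.22), ZNF726 (-0.22) and ZNF780B (-0.051). This scale differs by construction in the library sizes alone.

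With DESeq2's size factors the medians were -1.59 with THZ531, -1.54 with dCeMM-3 and -0.52 with dCeMM-4, and with DESeq2 itself -1.60, -1.55 and -0.51. Without the filter on low counts they were -1.58 with THZ531, -1.25 with dCeMM-3, -1.12 with dCeMM-2 and -0.47 with dCeMM-4. More low genes entered that fit. A fit of only the groups compared gave -1.59 with THZ531 and -1.497 with dCeMM-3, and 6 members lower with dCeMM-1. The cause was not tested for the fit without the filter or for the fit of the groups compared. The highest minus the lowest cluster median was 0.49 with dCeMM-1 and 1.49 with dCeMM-4 at a gap of 0.5 Mb, and 1.06 with THZ531, 0.83 with dCeMM-2 and 0.72 with dCeMM-4 at 2 Mb. Over members with 5 CPM or more in DMSO it was 1.72 with THZ531, 2.19 with dCeMM-3, 1.13 with dCeMM-2, 1.61 with dCeMM-4 and 0.33 with dCeMM-1. Over members with no exon overlap it was 1.42 with dCeMM-3, 1.65 with dCeMM-2, 1.79 with dCeMM-4 and 0.37 with dCeMM-1.

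Leaving out each library in turn gave medians between -1.89 and -1.74 with THZ531, between -0.69 and -0.61 with dCeMM-4 and between 0.27 and 0.35 with dCeMM-1, and 11 to 21 members lower for dCeMM-2 over dCeMM-3, with 11 without dCeMM-3 replicate 3. Members higher with dCeMM-1 numbered 47 to 63 in these fits, against 70 with all libraries. The cluster difference lay between 1.69 and 1.92 with THZ531, 1.13 and 1.40 with dCeMM-3, 1.2001 and 1.49 with dCeMM-4, and 0.21 and 0.37 with dCeMM-1. Of the values of named genes 940 kept their call and 20 lost it. Replicate numbers did not pair the libraries: 1 of 45 same-numbered pairs had a correlation of deviations over 0.1. A replicate block changed no call of the 160 named values, and left 148 members lower with THZ531 and 69 higher with dCeMM-1.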
